A study of Mus musculus with 17 samples.

Results

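Transcript levels of 10 genes of glycine, threonine and methionine metabolism were followed in *Nanog* mutant and control mouse embryonic stem (ES) cells as the cells left the naïve state. The genes are *Bhmt*, *Bhmt2*, *Tdh*, *Gcat*, *Gldc*, *Amt*, *Mat2a*, *Ahcy*, *Shmt1* and *Shmt2*, and all 10 were among the 15470 rows of the table and among its 15117 tested genes. They were taken by name as enzymes of one stretch of metabolism, with earlier results of these data known. *Bhmt* was put on the list because of its large difference between genotypes, so its levels in both genotypes are given as a description with no test.

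The samples were *Nanog* KO (also KO below) ES cells (the BT12 line) and the E14Tg2a line from which they derive, here called control, at 0, 12 and 24 h after a change to serum. At 0 h the cells grew without serum in Knockout serum replacement with LIF and 2i (inhibitors of the kinases MEK and GSK3), over inactivated mouse embryonic fibroblasts. Each genotype is therefore a single cell line and each culture could hold feeder cells. Each group held 3 libraries, apart from control cells at 0 h with 2 (replicates 2 and 3) analysed here.

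These enzymes feed and use the pool of one-carbon units that cells spend on nucleotide synthesis and on methylation. Serine hydroxymethyltransferases and the glycine cleavage system load these units onto folate, and mouse ES cells are known to break down threonine to glycine to supply glycine cleavage. The methionine cycle turns methionine into S-adenosylmethionine, the methyl donor for DNA and histones, and remakes methionine from homocysteine with a methyl group from folate or from betaine.

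Depth was 10876687 to 23922556 reads in *Nanog* KO libraries and 8775372 to 33766086 reads in control libraries, and 3 reads, the limit that a count of 0 allows, were 0.0851 to 0.326 CPM by counting error alone. *Nanog* itself averaged 32.8, 25.3 and 14.4 CPM at 0, 12 and 24 h in *Nanog* KO cells and 411.7, 394.6 and 298.7 CPM in control cells, which goes with the labels. All 8 ES cell markers examined were expressed, with summed levels of 3599 to 4680 CPM in *Nanog* KO libraries and 3317 to 4540 CPM in control libraries. The 15 feeder fibroblast markers summed to 998.4 to 2404 CPM in *Nanog* KO libraries and 1817 to 3091 CPM in control libraries. Of 14 markers of primitive and visceral endoderm, 11 were in the table, and they summed to 413.4 to 1135 CPM in *Nanog* KO libraries and 57.05 to 83.46 CPM in control libraries. Values below are TMM-scaled CPM, and each log2 fold change was taken after adding 1 CPM and carries its standard error. This scale understates the change of low genes such as *Bhmt2*. In bulk RNA, fewer cells that express a gene and less RNA per cell cannot be told apart.

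*Bhmt* encodes betaine-homocysteine methyltransferase, which moves a methyl group from betaine to homocysteine to make methionine, and is best known from liver and kidney. *Bhmt2* encodes a related enzyme that uses S-methylmethionine as its donor. Both lie on the minus strand of chromosome 13 in GRCm38, *Bhmt* (ENSMUSG00000074768) from 93616675 to 93637961 and *Bhmt2* (ENSMUSG00000042118) from 93655720 to 93674302. *Dmgdh*, the dehydrogenase that acts on the dimethylglycine left over by *Bhmt*, starts on the plus strand at 93674433, so that *Bhmt2* and *Dmgdh* run head to head. The sequence before the RefSeq start of *Bhmt* is shown because this gene had the largest genotype difference of the 10, and that of *Bhmt2* because so little separates it from *Dmgdh*. The *Bhmt* sequence is the 250 bases before its RefSeq start, chr13:93637759-93638008, and the *Bhmt2* sequence is the 130 bases between *Bhmt2* and *Dmgdh*, chr13:93674303-93674432. Both are RefSeq sequences of GRCm38.p6 read 5′ to 3′ on the minus strand, with motif matches in capitals. The RefSeq start of *Bhmt* lies inside the gene as GENCODE M21 bounds it. Most of this window, TCAAGGTCA included, is therefore within the gene in that annotation.
Bhmt: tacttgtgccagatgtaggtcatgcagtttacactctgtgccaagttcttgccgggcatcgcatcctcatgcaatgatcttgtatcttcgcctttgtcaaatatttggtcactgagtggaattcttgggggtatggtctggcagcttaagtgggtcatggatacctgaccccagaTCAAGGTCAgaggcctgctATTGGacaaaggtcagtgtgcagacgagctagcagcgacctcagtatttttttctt
Bhmt2: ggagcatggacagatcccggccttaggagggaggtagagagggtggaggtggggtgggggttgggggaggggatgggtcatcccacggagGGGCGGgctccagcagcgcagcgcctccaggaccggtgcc

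The *Bhmt* sequence has 48% G and C and 5 CpG dinucleotides in 250 bases, while the stretch before *Bhmt2* has 70.8% G and C and 6 CpG dinucleotides in 130 bases. Over 250 bases the *Bhmt2* promoter has 74% G and C and 20 CpG dinucleotides. The medians of 32851 mouse promoters are 52.4% and 6. RefSeq promoters were found for 9 of the 10 genes, all but *Tdh*, and were searched over 250 bases on both strands for 5 motifs. TCAAGGTCA, the extended element bound by oestrogen-related receptors, was added after the *Bhmt* sequence had been seen, and it stood in the *Bhmt* promoter and in no other of the 9, against 0.387% of 32851 mouse promoters. CCAAT, shown in *Bhmt* as its reverse ATTGG, was in 6 of the 9 promoters and in 33.8% of all. GGGCGG was in 7 of the 9, not in *Bhmt*, and in 32.7% of all, whereas TATAAA was found in *Mat2a* alone (12.4% of all) and TAAT in *Amt* alone (54.9% of all). These matches describe letters in a window and no binding was measured.

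*Bhmt* was high in *Nanog* KO cells and low in control cells. At 0 h it stood at 42.0, 44.5 and 43.5 CPM in the *Nanog* KO libraries, against 4.13 and 3.91 CPM in the control libraries. At 12 h the values were 23.9, 22.0 and 20.2 CPM in KO against 1.36, 1.55 and 1.09 CPM in control libraries, and at 24 h they were 8.82, 11.6 and 9.48 CPM in KO against 1.42, 0.710 and 0.954 CPM in control libraries. Every *Nanog* KO library was above every control library of its time, and also above both control libraries at 0 h. Mean CPM in *Nanog* KO cells was 10.8 times that of control cells at 0 h, 16.5 times at 12 h and 9.69 times at 24 h, and the log2 fold changes were 3.14 ± 0.14, 3.30 ± 0.13 and 2.44 ± 0.13 (SE). The reads behind these values numbered 100 to 994 per *Nanog* KO library and 10 to 98 per control library, so that the control levels carry the larger counting error.

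Over time *Bhmt* fell in both genotypes. The libraries compared here are also those of the genotype difference for which *Bhmt* was picked, so its tests over time are not independent of that choice. From 0 to 24 h the log2 fold change was -2.02 ± 0.13 in *Nanog* KO cells (limma, adjusted p = 1.9e-10) and -1.32 ± 0.14 in control cells (adjusted p = 3.0e-07). On the linear scale the mean at 24 h was 0.230 of that at 0 h in the mutant and 0.256 in control cells. The difference between these falls, -0.70 ± 0.19 on the log2(CPM + 1) scale, came out at -0.20 with 0.1 CPM added in place of 1 and at -0.14 with edgeR on the recovered reads. In *Nanog* KO cells the fall took place in both intervals (-0.95 ± 0.13 from 0 to 12 h and -1.07 ± 0.13 from 12 to 24 h, limma, adjusted p = 5.5e-06 and 6.4e-06). In control cells it was called from 0 to 12 h (-1.11 ± 0.14, adjusted p = 4.0e-06) but not from 12 to 24 h (-0.21 ± 0.13, adjusted p = 0.21). It was called there without control replicate 1 at 24 h (-0.35, limma, adjusted p = 0.039) and came out at -0.43 in edgeR and DESeq2 (adjusted p = 0.17 and 0.21). Of the 11 endoderm markers in the table, 10 were called above control at 0 h and all 11 at both later times. *Foxa2* was the 1 not called at 0 h, with a lower mean in *Nanog* KO cells (-0.30, limma, adjusted p = 0.24). Of all tested genes 25.4%, 24.6% and 23.4% were called higher at 0, 12 and 24 h. With time the sum of the 11 endoderm markers rose in *Nanog* KO libraries while *Bhmt* fell. This sum was 413.4 to 438.9 CPM at 0 h, 777.1 to 826.4 CPM at 12 h and 994.4 to 1135 CPM at 24 h. The most abundant markers weigh most in it. Gene by gene, 5 of the 11 were called as rising from 0 to 12 h and 8 over 24 h, and the rest were not called. Of all tested genes 25.7% and 28.8% rose in these comparisons. Of 7 hepatocyte markers 4 were in the table. *Alb*, *Cyp2e1* and *Hpd* were not among the rows analysed. The 4 summed to 530.6 to 546.6 CPM in *Nanog* KO libraries at 0 h and 264.9 to 292.3 CPM in control libraries, nearly all of it *Ass1*. This enzyme of arginine synthesis averaged 520.9, 306.4 and 336.8 CPM at 0, 12 and 24 h in the mutant, against 259.3, 204.0 and 198.5 CPM in control cells. Like *Bhmt*, it was above control each time (1.01, 0.58 and 0.76, limma, adjusted p = 1.4e-11, 5.4e-09 and 1.6e-10). It fell over 24 h in both genotypes (-0.63 in KO and -0.38 in control cells, adjusted p = 1.8e-09 and 5.1e-06). *Tat*, too low to be tested, averaged 1.05, 0.665 and 0.606 CPM in KO. In control cells it was listed at 0 at 0 h and averaged 0.0551 and 0.0891 CPM at 12 and 24 h. *Cps1* was not called at 0, 12 or 24 h (0.22, 0.31 and 0.30, adjusted p = 0.28, 0.088 and 0.1). *Fah* was lower at 0 and 24 h (-0.36 and -0.44, adjusted p = 0.02 and 0.0027) and not called at 12 h (-0.27, adjusted p = 0.051). The part of any other cell type in the *Bhmt* level was not tested.

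**Figure D1:**
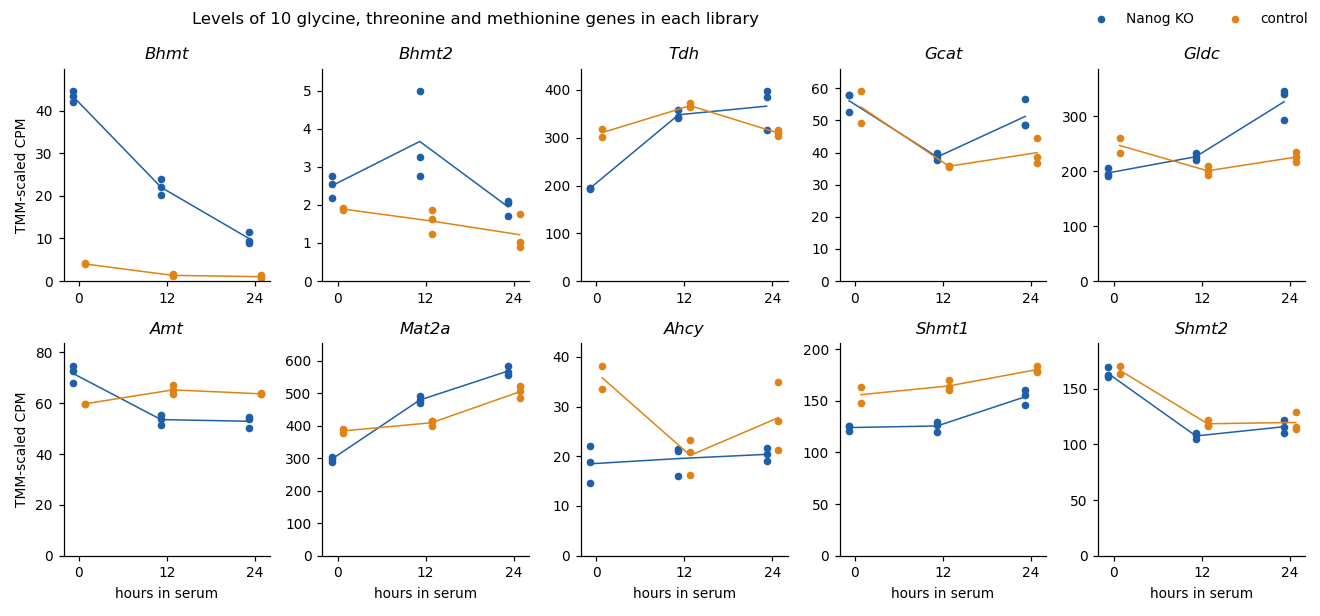
TMM-scaled CPM of each of the 10 genes in every library (points) against hours in serum, with lines through the group means, *Nanog* KO in blue and control in orange. *Bhmt* lies between 8.82 and 44.5 CPM in *Nanog* KO cells and between 0.710 and 4.13 CPM in control cells, while the lines of *Tdh*, *Gldc*, *Amt* and *Mat2a* cross.

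*Bhmt2* was far lower than its neighbour in *Nanog* KO cells. It stood at 2.19, 2.55 and 2.76 CPM in *Nanog* KO libraries at 0 h, against 1.86 and 1.91 CPM in control libraries. At 12 h it was 4.98, 3.25 and 2.76 CPM in KO against 1.87, 1.22 and 1.63 CPM in control libraries, and at 24 h 2.11, 2.04 and 1.71 CPM in KO against 1.01, 1.75 and 0.881 CPM in control libraries. The groups did not overlap at 0 and 12 h and did so at 24 h. The difference was called at 12 h (0.84 ± 0.17, limma, adjusted p = 4.9e-04) and narrowly at 24 h (0.43 ± 0.17, adjusted p = 0.046), but not at 0 h (0.27 ± 0.19, adjusted p = 0.25). The call at 24 h was lost when any of 11 of the 17 libraries was left out (adjusted p = 0.05 to 0.18) and with DESeq2 (adjusted p = 0.061), and it rested on 18 to 48 reads in *Nanog* KO libraries and 20 to 42 reads in control libraries. Within *Nanog* KO cells *Bhmt2* fell from 12 to 24 h (-0.63 ± 0.17, adjusted p = 0.01), a call that was not made without replicate 1 at 12 h, the library at 4.98 CPM (-0.44, adjusted p = 0.07).

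Along the chromosome, *Dmgdh* was also higher in *Nanog* KO cells, with means of 7.71, 6.14 and 6.15 CPM at 0, 12 and 24 h against 5.50, 2.15 and 1.45 CPM in control cells. Its log2 fold changes were 0.41, 1.18 and 1.54 (limma, adjusted p = 0.03, 9.4e-07 and 3.1e-08), the largest at 24 h, where that of *Bhmt* was the smallest of its 3. With edgeR, which adds less to low counts, *Bhmt* had 3.43, 4.02 and 3.30 at 0, 12 and 24 h. On that scale its differences at 0 and 24 h were close. Further away, *Jmy* (0.04, adjusted p = 0.74), *Homer1* (-0.07, adjusted p = 0.63), *Arsb* (-0.14, adjusted p = 0.58) and *Papd4* (-0.16, adjusted p = 0.051) were not called at 0 h. At 12 and 24 h only *Papd4* of these 4 was called (0.29 and 0.18, adjusted p = 5.5e-04 and 0.02).

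**Figure D2:**
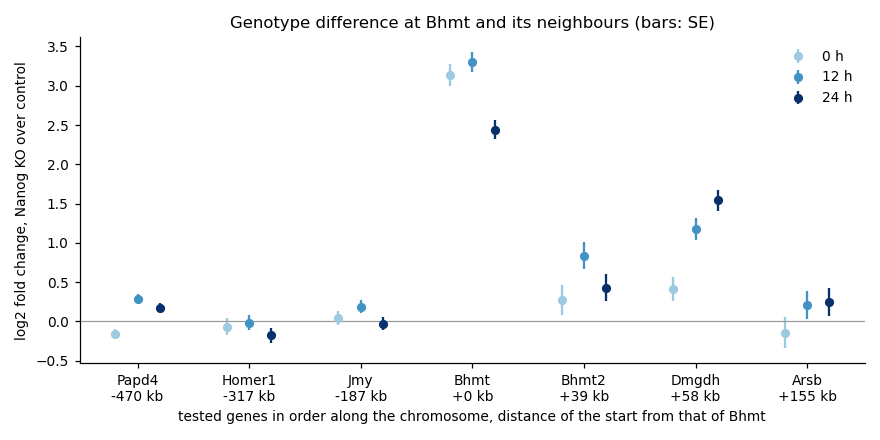
Log2 fold change of *Nanog* KO over control (points, bars are SE) at 0, 12 and 24 h for *Bhmt* and the 3 nearest tested genes on each side, in chromosomal order with the distance of each gene's lower coordinate from that of *Bhmt* in kilobases. *Bhmt* stands between 2.44 and 3.30, *Dmgdh* reaches 1.54 at 24 h, and *Homer1*, *Jmy* and *Arsb* lie near 0.

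*Tdh* (ENSMUSG00000021953, chromosome 14 from 63492347 to 63509092) encodes threonine dehydrogenase, the first step in the conversion of threonine to glycine and acetyl-CoA, and *Gcat* (ENSMUSG00000006378, chromosome 15 from 79030874 to 79038353) encodes the ligase of the next step. *Tdh* started lower in *Nanog* KO cells, at 196, 196 and 193 CPM at 0 h against 319 and 302 CPM in control libraries. It was 359, 342 and 343 CPM in KO against 364, 372 and 365 CPM in control libraries at 12 h, and 385, 317 and 397 CPM in KO against 309.5, 303 and 317 CPM in control libraries at 24 h. All *Nanog* KO libraries lay below the control libraries at 0 and 12 h, and at 24 h those at 385 and 397 CPM were above every control library while the one at 317 CPM lay just under the highest of them. The genotype difference was -0.67 ± 0.07 at 0 h (limma, adjusted p = 1.6e-07), -0.08 ± 0.06 at 12 h (adjusted p = 0.32) and 0.23 ± 0.06 at 24 h (adjusted p = 0.0041). From 0 to 24 h *Tdh* rose in *Nanog* KO cells by 0.90 ± 0.06 (adjusted p = 7.3e-10), most of it by 12 h (0.83 ± 0.06, adjusted p = 3.7e-09). Without replicate 2 at 24 h, the library at 317 CPM, a further rise from 12 to 24 h was called (0.17, adjusted p = 0.011). In control cells it rose to 12 h (0.24 ± 0.07, adjusted p = 0.0078) and fell from there to 24 h (-0.24 ± 0.06, adjusted p = 0.0053), so that 24 h did not differ detectably from 0 h (-0.00 ± 0.07, adjusted p = 0.96). The rise to 12 h in control cells was not called without replicate 3 at 0 h (0.20, adjusted p = 0.073), and with quantile scaling the genotype difference at 12 h was called (-0.17, adjusted p = 0.032) and that at 24 h was not (0.13, adjusted p = 0.086).

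*Gcat* had its lowest level at 12 h in both genotypes. It was 58.0, 57.9 and 52.5 CPM in *Nanog* KO libraries at 0 h against 59.1 and 49.3 CPM in control libraries, and 39.7, 37.6 and 38.5 CPM in KO against 35.9, 35.5 and 35.7 CPM in control libraries at 12 h. At 24 h it was 48.5, 48.6 and 56.7 CPM in KO against 44.6, 38.6 and 36.8 CPM in control libraries. The fall to 12 h was called in both genotypes (-0.53 ± 0.08 in the mutant and -0.58 ± 0.09 in control cells, limma, adjusted p = 2.3e-05 and 3.3e-05). The rise from 12 to 24 h was called in *Nanog* KO cells (0.40 ± 0.08, adjusted p = 0.0012) and missed the threshold in control cells (0.15 ± 0.08, adjusted p = 0.15). Genotypes differed at 24 h (0.35 ± 0.08, adjusted p = 0.0012) and not detectably at 0 h (0.05 ± 0.09, adjusted p = 0.64) or 12 h (0.11 ± 0.08, adjusted p = 0.27). Genes of chromosome 15, where *Gcat* lies, had a median log2 fold change between genotypes of 0.415, 0.43 and 0.441 at the 3 times over 588 tested genes, above that of *Gcat* each time, and what this shift adds to the *Gcat* difference was not tested.

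*Gldc* (ENSMUSG00000024827, chromosome 19 from 30098447 to 30175429) encodes the decarboxylase of the glycine cleavage system and *Amt* (ENSMUSG00000032607, chromosome 9 from 108296853 to 108302302) its aminomethyltransferase, the subunit that passes the one-carbon unit to folate. *Gldc* was 205, 191 and 195 CPM in *Nanog* KO libraries at 0 h against 233 and 261 CPM in control libraries. It was 221, 226 and 233 CPM in KO against 192, 200.2 and 209.9 CPM in control libraries at 12 h, and 346, 293 and 342 CPM in KO against 235, 217 and 225 CPM in control libraries at 24 h. The groups overlapped at no time, with *Nanog* KO cells below control cells at 0 h and above them after. The differences were -0.32 ± 0.07 (limma, adjusted p = 6.0e-04), 0.17 ± 0.06 (adjusted p = 0.025) and 0.53 ± 0.06 (adjusted p = 1.1e-06). The one at 12 h was lost with quantile scaling (0.07, adjusted p = 0.32), with limma without the trend (adjusted p = 0.052) and without any of 4 libraries, replicates 2 or 3 of *Nanog* KO and 1 or 2 of control at 12 h (adjusted p = 0.054 to 0.1).

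*Amt* was 74.6, 72.6 and 67.9 CPM in *Nanog* KO libraries at 0 h against 59.7 and 59.8 CPM in control libraries. At 12 h it was 55.4, 53.7 and 51.6 CPM in KO against 65.0, 67.3 and 63.5 CPM in control libraries, and at 24 h 50.3, 54.4 and 54.0 CPM in KO against 63.8, 63.5 and 63.7 CPM in control libraries. Here too the groups did not overlap, with *Nanog* KO cells above control cells at 0 h and below them at 12 and 24 h. The differences were 0.26 ± 0.06, -0.28 ± 0.05 and -0.26 ± 0.05 (limma, adjusted p = 7.2e-04, 1.2e-04 and 2.4e-04). From 0 to 24 h in *Nanog* KO cells *Gldc* rose by 0.72 ± 0.06 (adjusted p = 1.4e-08) and *Amt* fell by 0.43 ± 0.05 (adjusted p = 7.4e-07). In control cells the corresponding changes were -0.13 ± 0.07 (adjusted p = 0.12) and 0.09 ± 0.06 (adjusted p = 0.18). Of the remaining subunits, *Gcsh*, the lipoyl carrier, stood below control at 0 h (-0.33, adjusted p = 1.2e-04) and rose in mutant cells over 24 h (0.39, adjusted p = 5.5e-06). *Dld*, a subunit shared with other dehydrogenase complexes, was not called between genotypes at 0 h (0.12, adjusted p = 0.14) or 12 h (0.09, adjusted p = 0.22). At 24 h it was higher in *Nanog* KO cells (0.15, adjusted p = 0.034). It fell over 24 h in *Nanog* KO cells (-0.18, adjusted p = 0.012) and control cells (-0.22, adjusted p = 0.0076).

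*Shmt1* (ENSMUSG00000020534, chromosome 11 from 60788104 to 60811718) and *Shmt2* (ENSMUSG00000025403, chromosome 10 from 127517123 to 127522444) encode the cytosolic and the mitochondrial serine hydroxymethyltransferase, which split serine into glycine and a one-carbon unit. *Shmt1* was below control at all 3 times. It was 126, 125 and 121 CPM in *Nanog* KO libraries at 0 h against 164 and 148 CPM in control libraries, 120.1, 127 and 129.9 CPM in KO against 163, 161 and 169.7 CPM in control libraries at 12 h, and 160.1, 146 and 155 CPM in KO against 184, 178 and 179 CPM in control libraries at 24 h. The groups were apart each time, by -0.33 ± 0.05, -0.39 ± 0.05 and -0.23 ± 0.05 (limma, adjusted p = 5.5e-05, 2.5e-06 and 7.7e-04). It rose over 24 h in *Nanog* KO cells (0.31 ± 0.05, adjusted p = 2.8e-05) and in control cells (0.21 ± 0.05, adjusted p = 0.0032), though the rise in control cells was not called without replicate 3 at 0 h (0.14, adjusted p = 0.076).

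*Shmt2* fell over time in both genotypes. It was 169, 162 and 160.4 CPM in *Nanog* KO libraries at 0 h against 170.5 and 163 CPM in control libraries, 105, 108 and 110.1 CPM in KO against 117, 117 and 122 CPM in control libraries at 12 h, and 110.2, 116 and 122 CPM in KO against 129.6, 114 and 116 CPM in control libraries at 24 h. The groups overlapped at 0 and 24 h. The log2 fold change from 0 to 24 h was -0.50 ± 0.05 in the mutant and -0.48 ± 0.06 in control cells (limma, adjusted p = 2.3e-07 and 1.9e-06), and it was reached by 12 h in both (-0.60 ± 0.05 in *Nanog* KO and -0.49 ± 0.06 in control cells, adjusted p = 3.2e-08 and 2.3e-06). The difference between these changes over 24 h was -0.02 ± 0.08 (adjusted p = 0.87). Genotypes differed at 12 h alone (-0.14 ± 0.05, adjusted p = 0.035), a call that was lost without *Nanog* KO replicate 1 or 2 or any control replicate at 12 h (adjusted p = 0.054 to 0.12).

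*Mat2a* (ENSMUSG00000053907, chromosome 6 from 72432799 to 72439558) encodes the catalytic subunit of the methionine adenosyltransferase of non-hepatic cells, which makes S-adenosylmethionine. It was 288, 298 and 305 CPM in *Nanog* KO libraries at 0 h against 378 and 391 CPM in control libraries. At 12 h it was 478, 490.4 and 469 CPM in KO against 414, 398 and 415 CPM in control libraries, and at 24 h 584, 566 and 555 CPM in KO against 508, 521 and 484 CPM in control libraries. The groups overlapped at no time, with *Nanog* KO cells lower at 0 h (-0.37 ± 0.05, limma, adjusted p = 2.5e-06) and higher at 12 h (0.23 ± 0.04, adjusted p = 1.9e-04) and 24 h (0.17 ± 0.04, adjusted p = 0.0025). With quantile scaling the difference at 24 h was 0.05 (adjusted p = 0.33). *Mat2a* rose over 24 h in *Nanog* KO cells (0.93 ± 0.04, adjusted p = 2.5e-12) and in control cells (0.39 ± 0.05, adjusted p = 1.5e-06). In *Nanog* KO cells 0.69 ± 0.04 of this came in the first 12 h (adjusted p = 3.2e-10), while in control cells the change was 0.09 ± 0.05 to 12 h (adjusted p = 0.12) and 0.30 ± 0.04 from 12 to 24 h (adjusted p = 3.4e-05).

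*Ahcy* (ENSMUSG00000027597, chromosome 2 from 155059310 to 155074497) encodes S-adenosylhomocysteine hydrolase, which clears the product of methylation reactions. The table held few reads for it, at 18.8, 14.6 and 22.1 CPM in *Nanog* KO libraries at 0 h against 33.4 and 38.1 CPM in control libraries. It was 16.0, 21.1 and 21.5 CPM in KO against 23.3, 20.9 and 16.3 CPM in control libraries at 12 h, and 20.5, 19.1 and 21.6 CPM in KO against 21.2, 35.0 and 27.1 CPM in control libraries at 24 h. The groups were apart at 0 h (-0.93 ± 0.19, limma, adjusted p = 3.4e-04) and overlapped at 12 h (-0.04 ± 0.17, adjusted p = 0.86) and 24 h (-0.40 ± 0.17, adjusted p = 0.054), where the call was made by edgeR (-0.45, adjusted p = 0.036) and DESeq2 (-0.44, adjusted p = 0.022) on the recovered reads, and by limma without control replicate 1 at 24 h (-0.57, adjusted p = 0.0085). These values are uncertain because a near-identical copy holds most of the reads assigned to the pair. *Gm4737* (ENSMUSG00000048087), annotated as protein coding on chromosome 16, differs from *Ahcy* at 4 of 1299 coding bases, and 66% of the 50-base windows of *Ahcy* transcripts occur in it unchanged, besides 30.2% in the pseudogene *Gm9826*, which was not among the rows analysed. The 60 coding bases of 1 exon with the most differences, 2 of the 4, are shown for both genes with the differing bases in capitals as an example of how little separates the pair. They are coding bases 446 to 505, chr2:155064867-155064926 and chr16:46154508-46154567 of GRCm38 (GENCODE M21 transcripts), both read on the minus strand.
Ahcy: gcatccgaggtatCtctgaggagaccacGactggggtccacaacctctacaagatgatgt
Gm4737: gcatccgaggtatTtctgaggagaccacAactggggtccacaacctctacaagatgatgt

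*Gm4737* averaged 505.1 CPM over the libraries, and *Ahcy* held 2.87% to 5.64% of the sum of both. Summed before the log, a treatment chosen after these shared windows were seen, the pair stood at 409.4 ± 7.85, 414.9 ± 13.2 and 505.5 ± 15.1 CPM (SD, n = 3 each) in *Nanog* KO cells at 0, 12 and 24 h. In control cells it stood at 697.2 ± 27.2 CPM (SD, n = 2) at 0 h, 561.9 ± 5.69 CPM at 12 h and 635.8 ± 49.6 CPM at 24 h (SD, n = 3 each). The sum was lower in *Nanog* KO cells at all 3 times, by -0.77 ± 0.06, -0.44 ± 0.05 and -0.33 ± 0.05 (limma, adjusted p = 2.0e-09, 9.0e-07 and 3.0e-05). Over 24 h it rose in *Nanog* KO cells (0.30 ± 0.05, adjusted p = 5.2e-05), while in control cells the change was -0.14 ± 0.06 (adjusted p = 0.05). Which of the 2 loci is transcribed cannot be told from these values.

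**Figure D3:**
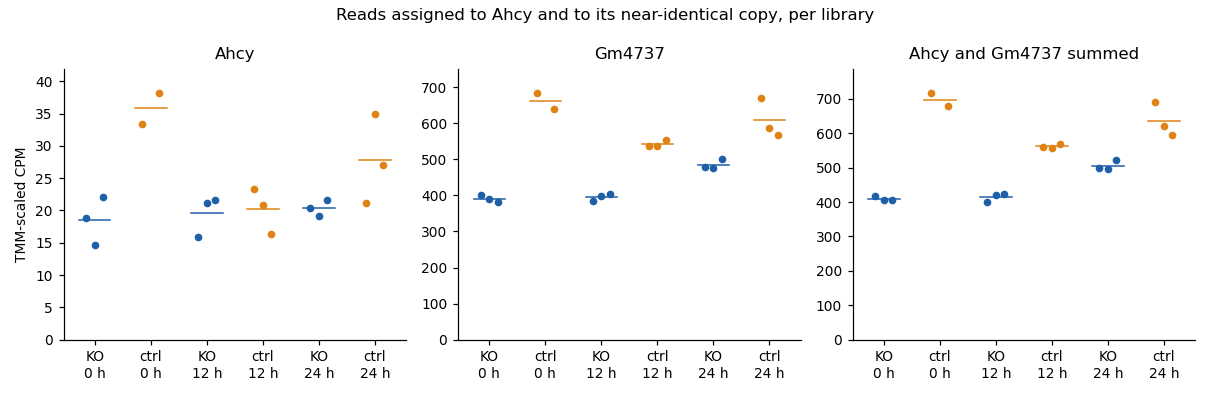
TMM-scaled CPM of *Ahcy*, of its near-identical copy *Gm4737* and of their sum in every library (points, lines are group means), *Nanog* KO in blue left of control in orange at each time. *Ahcy* stays at or below 38.1 CPM, while the sum lies between 399.8 and 716.5 CPM and is lower in *Nanog* KO cells at each time.

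Side by side, the genotype differences of the 9 genes other than *Bhmt* shifted over time. At 0 h 1 was called higher in *Nanog* KO cells (*Amt*), 5 lower (*Tdh*, *Gldc*, *Mat2a*, *Ahcy*, *Shmt1*) and 3 were not called, where 52.3% of all tested genes were called, 25.4% higher and 26.9% lower. At 12 h 3 were higher (*Bhmt2*, *Gldc*, *Mat2a*) and 3 lower (*Amt*, *Shmt1*, *Shmt2*), where 49.8% of all genes were called, 24.6% higher and 25.2% lower. At 24 h 5 were higher (*Bhmt2*, *Tdh*, *Gcat*, *Gldc*, *Mat2a*) and 2 lower (*Amt*, *Shmt1*), where 47.9% were called, 23.4% higher and 24.5% lower. Their median log2 fold change was -0.32, -0.04 and 0.17 at the 3 times, against medians of all tested genes of -0.01, -0.00 and -0.01. These comparisons are counted over genes chosen by name with earlier results of these data known, and the same libraries enter several of them. *Ahcy* is counted by the reads assigned to it alone, and the median at 12 h is its value. Summed with *Gm4737* it was lower also at 12 h (-0.44, limma, adjusted p = 9.0e-07) and 24 h (-0.33, adjusted p = 3.0e-05).

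**Figure D4:**
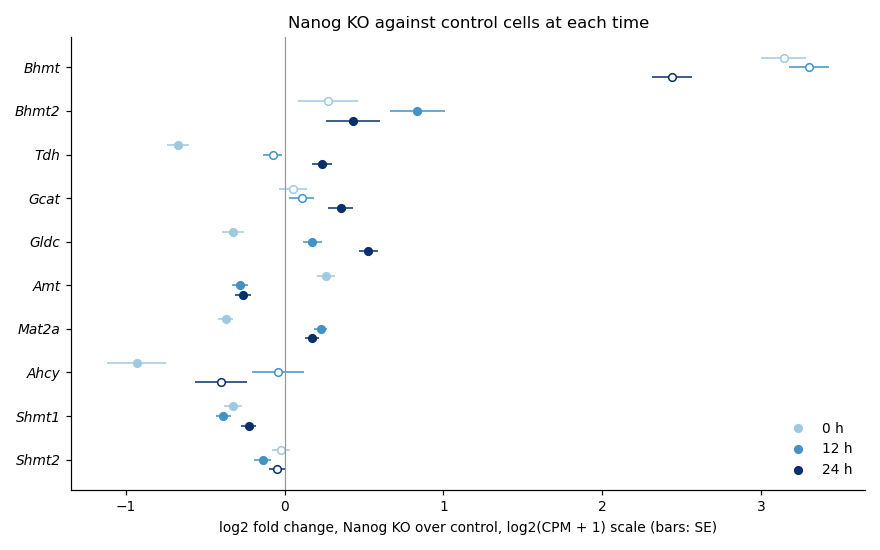
Log2 fold change of *Nanog* KO over control on the log2(CPM + 1) scale (bars are SE) for each gene at 0, 12 and 24 h, with filled points for calls at an adjusted p under 0.05 and open points for the rest and for *Bhmt*, which has no test. *Tdh*, *Gldc* and *Mat2a* lie left of 0 at 0 h and right of it at 24 h, and *Amt* does the reverse.

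Of all 10 genes, 4 rose and 3 fell over 24 h in *Nanog* KO cells, where 58.3% of all tested genes changed, 28.8% up and 29.5% down. Those that rose were *Tdh*, *Gldc*, *Mat2a* and *Shmt1*, and those that fell were *Bhmt*, *Amt* and *Shmt2*. *Bhmt* is counted here although it was picked from these same libraries for its genotype difference. In control cells 2 rose (*Mat2a*, *Shmt1*) and 3 fell (*Bhmt*, *Gcat*, *Shmt2*), where 54.9% of all genes changed, 26.1% up and 28.7% down. From 0 to 12 h 3 rose and 4 fell in *Nanog* KO cells (51.9% of all genes changed, 25.7% up and 26.1% down), and 1 and 5 in control cells (47.1%, 22.6% up and 24.5% down). From 12 to 24 h 4 rose and 2 fell in *Nanog* KO cells (27.4% of all genes changed, 13.1% up and 14.3% down), and 3 and 1 in control cells (32.0%, 15.1% up and 16.8% down). In the control count from 12 to 24 h, *Gldc* (0.17, adjusted p = 0.044) and *Shmt1* (0.13, adjusted p = 0.045) were each lost when any of 9 of the 17 libraries was left out (adjusted p = 0.05 to 0.15). Leaving out a library also added calls over 24 h, of *Gcat* in *Nanog* KO cells without replicate 3 at 24 h (-0.20, adjusted p = 0.038), of *Gldc* in control cells without replicate 2 at 0 h (-0.21, adjusted p = 0.044), and of *Bhmt2* (-0.57, adjusted p = 0.021) and *Ahcy* (-0.56, adjusted p = 0.017) in control cells without replicate 2 at 24 h. From 0 to 12 h in *Nanog* KO cells *Bhmt2* was called without replicate 3 at 12 h (0.53, adjusted p = 0.024). Summed with *Gm4737*, *Ahcy* rose in *Nanog* KO cells over 24 h (0.30, limma, adjusted p = 5.2e-05) and from 12 to 24 h (0.28, adjusted p = 4.3e-04). In control cells the sum rose from 12 to 24 h (0.18, adjusted p = 0.013).

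The change over 24 h differed between genotypes for 4 of the 9 genes with a test, where 29.8% of all tested genes had such an interaction, 15.5% positive and 14.3% negative. It was more positive in *Nanog* KO cells for *Tdh* (0.90 ± 0.09, limma, adjusted p = 9.7e-07), *Gldc* (0.85 ± 0.09, adjusted p = 2.0e-06) and *Mat2a* (0.54 ± 0.06, adjusted p = 4.5e-06), and more negative for *Amt* (-0.52 ± 0.07, adjusted p = 4.1e-05). These 4 calls were made under every alternative tried. The interaction was not called for *Gcat* (0.30 ± 0.12, adjusted p = 0.067), *Ahcy* (0.53 ± 0.25, adjusted p = 0.12), *Bhmt2* (0.16 ± 0.26, adjusted p = 0.69), *Shmt1* (0.10 ± 0.07, adjusted p = 0.33) or *Shmt2*. The interaction of *Gcat* was called without control replicate 3 at 0 h (0.43, adjusted p = 0.019) or replicate 1 at 24 h (0.38, adjusted p = 0.015), and that of *Ahcy* without control replicate 2 at 24 h (0.71, adjusted p = 0.034). With reads of *Gm4737* added, that of *Ahcy* was 0.44 ± 0.08 (adjusted p = 2.7e-04). The interaction uses the same 0 h and 24 h libraries as the genotype differences above. Feeder fibroblast markers fell over the same 24 h, 15 of 15 in *Nanog* KO cells and 12 of 15 in control cells. Of all tested genes 29.5% fell in the mutant over this time and 28.7% in control cells. The markers' part in these changes was not tested.

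**Figure D5:**
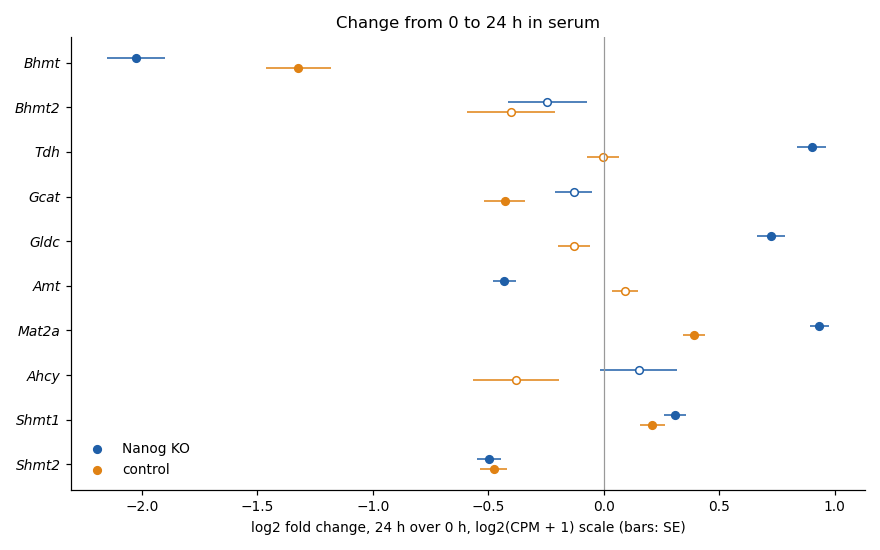
Log2 fold change of 24 h over 0 h on the log2(CPM + 1) scale (bars are SE) for each gene in *Nanog* KO (blue) and control (orange) cells, with filled points for calls at an adjusted p under 0.05. *Mat2a* has 0.93 in *Nanog* KO and 0.39 in control cells, *Tdh* 0.90 in *Nanog* KO and -0.00 in control cells, and *Shmt2* -0.50 in *Nanog* KO and -0.48 in control cells.

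Levels of different genes were compared as CPM per kilobase of annotated exon. In *Nanog* KO cells at 0 h the order was *Tdh* (74.5 ± 0.49, SD, n = 3), *Mat2a* (66.2 ± 1.85), *Shmt2* (52.8 ± 1.53), *Gldc* (32.3 ± 1.23), *Shmt1* (32.0 ± 0.67), *Amt* (29.4 ± 1.42), *Gcat* (23.5 ± 1.33), *Bhmt* (7.53 ± 0.22), *Ahcy* (6.59 ± 1.33) and *Bhmt2* (1.01 ± 0.12). *Gldc* and *Shmt1*, and *Bhmt* and *Ahcy*, lay within their spread of each other. In control cells *Tdh* (119 ± 4.63 CPM per kilobase, SD, n = 2) and *Mat2a* (85.6 ± 2.08) also came first by the reads assigned to them, and *Bhmt2* (0.765 ± 0.016) and *Bhmt* (0.699 ± 0.028) last. Of the 9 genes other than *Ahcy*, *Tdh* had the most reads per length in both genotypes at all 3 times, and the order of *Bhmt* and *Bhmt2* in control cells at 0 h turned when the longest transcript was used as length. The place of *Ahcy* is not set, as it leaves out the reads assigned to *Gm4737*.

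By the similarity of their levels over the 17 libraries, measured as Pearson correlation of log2(CPM + 1) among 10320 genes, genes most like *Bhmt* included *Psap* (0.98), *Grina* (0.98), *Esx1* (0.98) and *Cyb5r3* (0.98), of which *Grina* and *Cyb5r3* lie on chromosome 15. The 5 most like *Tdh* were *Chka* (0.97), *Nav2* (0.94), *Polr1e* (0.93), *Nop16* (0.92) and *Slc7a6os* (0.92). The 17 points share genotype and time as well as libraries, and they hold the genotype difference for which *Bhmt* was picked. By Spearman correlation 2 of the 5 genes most like *Bhmt*, *Grina* among them, were the same. For *Tdh* it was 1 of the 5.

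The wider pathway was read from 9 lists with 99 further genes, 84 of which were tested. In *Nanog* KO relative to control cells 30 of them were above and 30 below at 0 h, 34 and 23 at 12 h, and 35 and 14 at 24 h. Of all tested genes, 25.4% were higher and 26.9% lower at 0 h, 24.6% and 25.2% at 12 h, and 23.4% and 24.5% at 24 h. The lists hold genes of chromosome 15, where the median log2 fold change was 0.415, 0.43 and 0.441 at the 3 times. *Csad* (transsulfuration) and *Chkb* (a choline kinase) are among them and were higher each time. What this shift adds to the counts was not tested. Of the 16 carriers of folate and amino acids, 10 were higher and 2 lower at 0 h, 12 were higher and 0 lower at 12 h, and 14 were higher and 0 lower at 24 h (limma, adjusted p under 0.05). Their median log2 fold change was 0.45, 0.34 and 0.42 at the 3 times, against -0.01, -0.00 and -0.01 over all tested genes. *Folr1*, the folate receptor alpha, averaged 86.1 CPM in *Nanog* KO cells and 38.1 CPM in control cells at 0 h (1.16, adjusted p = 5.2e-09), while *Slc1a4*, a carrier of alanine, serine and cysteine, averaged 17.8 CPM in *Nanog* KO and 36.0 CPM in control cells (-0.98, adjusted p = 3.5e-09).

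Around the betaine branch, *Chdh*, the choline dehydrogenase that starts betaine synthesis, averaged 6.14 CPM in *Nanog* KO cells and 2.44 CPM in control cells at 0 h (1.05, limma, adjusted p = 1.5e-05) and was not called at 12 or 24 h (adjusted p = 0.077 and 0.22). *Mtr*, the folate-dependent methionine synthase that does the same job as *Bhmt*, was higher at 0 h (0.54, adjusted p = 7.3e-06) and not detectably different at 24 h (0.03, adjusted p = 0.73). Of 9 choline and betaine genes tested, 4 were higher and 2 lower at 0 h, against 25.4% and 26.9% of all genes. *Etnk1*, an ethanolamine kinase, was among the higher (1.25, adjusted p = 6.8e-11) and *Chka*, choline kinase alpha, among the lower (-0.58, adjusted p = 1.4e-07).

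Homocysteine can also leave the cycle towards cysteine. *Cth*, which makes cysteine from cystathionine, averaged 83.0 CPM in *Nanog* KO cells and 23.6 CPM in control cells at 0 h (1.77, limma, adjusted p = 6.8e-13), whereas *Cbs*, the enzyme before it, averaged 8.44 CPM in *Nanog* KO and 15.4 CPM in control cells (-0.80, adjusted p = 5.3e-06). Over 8 transsulfuration genes 3 were higher and 2 lower at 0 h (25.4% and 26.9% of all genes), and 5 and 1 at 24 h (23.4% and 24.5%). *Adk*, which clears the adenosine released by *Ahcy*, was lower at 0 h (-0.80, adjusted p = 4.0e-09) and rose in *Nanog* KO cells over 24 h (1.20, adjusted p = 4.1e-12). Of 11 tested genes of the methionine cycle and remethylation, 4 were higher and 4 lower at 0 h.

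Of the 3 genes of serine synthesis, which feeds the serine hydroxymethyltransferases, 2 were lower and 0 higher at 0 h, where 26.9% of all tested genes were lower and 25.4% higher. *Phgdh*, the first enzyme, averaged 80.6 CPM in *Nanog* KO cells and 128.9 CPM in control cells (-0.67, limma, adjusted p = 3.0e-05), and *Psat1*, the second, 190.4 CPM in *Nanog* KO and 231.4 CPM in control cells (-0.28, adjusted p = 6.8e-05). At 24 h *Phgdh* (-0.15, adjusted p = 0.2), *Psat1* (-0.07, adjusted p = 0.16) and *Psph* (-0.16, adjusted p = 0.11) were not called. Methionine salvage, which recovers methionine from polyamine synthesis, had 3 of 8 genes higher and 5 lower at 0 h, the lower ones including *Sms* (-0.82, adjusted p = 4.2e-08) and *Mtap* (-0.70, adjusted p = 1.5e-08). At 12 h 4 of these 8 were higher and 2 lower (24.6% and 25.2% of all genes). At 24 h 2 were higher and 0 lower (23.4% and 24.5%). Among 19 one-carbon folate enzymes 4 were higher and 8 lower at 0 h, with *Mthfd2l*, a mitochondrial methylenetetrahydrofolate dehydrogenase, at 0.918 CPM in *Nanog* KO cells and 5.02 CPM in control cells (-1.65, adjusted p = 7.0e-07). Of 8 other glycine, serine and threonine enzymes 2 were higher and 4 lower, and *Gatm*, which starts creatine synthesis from glycine, was among the lower (-0.77, adjusted p = 5.2e-04).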

How the data were processed

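RNA-seq of *Nanog* KO and control ES cells gave 17 libraries, whose groups were taken from the sample labels. The authors trimmed single reads with cutadapt 1.3 and quantified genes with RSEM on GRCm38. CASAVA 1.8.2 and RSEM 1.2.3 stand in the submitters' processing notes, and the methods name a different RSEM release. The deposited values are a signal that the authors made by dividing reads by a TMM-scaled library size (edgeR), written here as CPM. Divided by the value of 1 read, 100% of them came out whole in each library (to 0.001 reads), which gave the depth. A batch correction named in the methods left no trace in them, and no batch is given. Separate cultures are not stated for the replicates, so the p-values rest on a spread that may be technical. One extraction protocol in the labels speaks of embryos.

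A gene was tested if 3 or more libraries had 1 CPM or more (15117 of 15470 rows). The test was limma 3.58.1 (R 4.3.3) after adding 1 CPM and taking log2, with a variance trend, 1 coefficient for every genotype and time, and Benjamini-Hochberg adjustment over all tested genes. It was two-sided and calls were made at an adjusted p under 0.05. The genes and lists were chosen with earlier results of these data known. All 10 genes are named, with up to 4 genes of each pathway list by the size of their difference at 0 h, the 3 nearest tested genes on each side of *Bhmt*, and the 5 genes most like *Bhmt* and *Tdh* (mean of at least 5 CPM), of which 1 is not reported here. Coordinates, exon lengths and transcript windows came from GENCODE M21 (GRCm38), a different release from the one the authors used. Whether counting used strand is not given in the sources used here.

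Windows of 50 bases shared with other genes made up 68.7% of *Ahcy*, 26.1% of *Bhmt* (mainly *Gm5096* and a pseudogene, neither among the rows analysed), 14.2% of *Mat2a* (9.64% with an antisense gene), 10.8% of *Gcat*, 10.2% of *Tdh* and 1.25% to 6.32% of the other 5. The alternatives used only the groups compared, all genes, or genes averaging 5 CPM or more. Others entered the replicate number as a block, scaled by median ratios or quantiles, added 0.1 CPM, or dropped the trend. The recovered reads were also tested with edgeR 4.0.16 (quasi-likelihood) and DESeq2 1.42.0, and each library was left out. Further alternatives were gene counts without chromosome 15, the longest transcript as length, Spearman correlation, and *Ahcy* summed with *Gm4737*, the last chosen after seeing the data. Of these tests, only limma between genotypes at 0 h was checked on simulated data, in which far fewer genes changed than were called here.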

Additional observations from a re-analysis of the deposited data

Results flagged for a closer look

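For 4 genes the change over 24 h in serum differed between genotypes by a test of the difference itself, the interaction of genotype and time in limma over all tested genes. *Tdh* had an interaction of 0.90 ± 0.09 (SE, log2, adjusted p = 9.7e-07), with all 3 *Nanog* KO libraries at 24 h above all 3 at 0 h and no call in control cells. *Gldc* had 0.85 ± 0.09 (adjusted p = 2.0e-06), with a rise in *Nanog* KO cells and no call in control cells. *Mat2a* had 0.54 ± 0.06 (adjusted p = 4.5e-06), with a rise in both genotypes that was larger in *Nanog* KO cells. *Amt* had -0.52 ± 0.07 (adjusted p = 4.1e-05), with a fall in *Nanog* KO cells and no call in control cells. Such interactions were called for 29.8% of all tested genes. Each rests on 2 control libraries at 0 h.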

How the results depend on the processing

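Over 27 alternatives, and for *Ahcy* also the sum with *Gm4737*, 2578 of 2700 values of the genes were counted as unchanged. For tested values this means the same direction and the same side of the threshold. For the untested *Bhmt* comparisons it means the same direction and a shift under 1 SD between libraries, and 12 values moved further. Calls of *Tdh*, *Gldc*, *Amt*, *Mat2a*, *Ahcy* and *Shmt1* between genotypes at 0 h and the 4 interactions were made under all of them. Quantile scaling left 3 genes higher in the mutant at 24 h and 3 that rose in control cells to 12 h, and it turned the direction of uncalled values of *Ahcy* between genotypes at 12 h (0.0051), *Amt* in the mutant between 12 and 24 h (0.0045) and *Tdh* in control cells over 24 h (0.0313). A minimum mean of 5 CPM, which drops *Bhmt2*, left 1 gene that fell in the mutant from 12 to 24 h, and limma without the trend left 1 that rose in control cells from 12 to 24 h. The cause was not tested. Leaving out 1 library in turn gave 1 to 2 genes that fell in the mutant between 12 and 24 h, 0 to 1 that rose in control cells to 12 h, 1 to 3 that rose and 1 to 2 that fell in control cells from 12 to 24 h, and 1 to 2 that rose and 3 to 5 that fell in control cells over 24 h. Leaving out 1 library turned the direction only of uncalled values, which then lay in these ranges: between genotypes *Gcat* (-0.0735 to 0.1808) and *Shmt2* (-0.056 to 0.0077) at 0 h, *Ahcy* at 12 h (-0.1801 to 0.0907) and *Shmt2* at 24 h (-0.0827 to 0.012), in *Nanog* KO cells *Ahcy* (-0.069 to 0.2145) and *Shmt1* (-0.0066 to 0.05) to 12 h, *Amt* (-0.0444 to 0.017) and *Ahcy* (-0.0637 to 0.1417) between 12 and 24 h and *Ahcy* over 24 h (-0.0006 to 0.2814), in control cells *Shmt2* between 12 and 24 h (-0.0453 to 0.0464) and *Tdh* over 24 h (-0.0438 to 0.0354), and the interaction of *Shmt2* (-0.0585 to 0.0361).
Same-numbered libraries of the 2 genotypes at 1 time had correlations of -0.322 to 0.147 in their deviations from the group means. Differently numbered libraries reached 0.416 (*Nanog* KO replicate 3 with control replicate 1 at 24 h). Deviations from means of 2 or 3 libraries are tied to each other, so these values cannot tell whether the replicate numbers pair the libraries. With the number as a replicate block, 4 genes in place of 5 exceeded control at 24 h (*Bhmt2* lost, adjusted p = 0.053), 2 in place of 3 were below control at 12 h (*Shmt2* lost, adjusted p = 0.052) and 2 in place of 3 rose in control cells from 12 to 24 h (*Shmt1* lost, adjusted p = 0.07), and the block changed no other call. *Bhmt* differed between genotypes by 3.43, 4.02 and 3.30 (log2) in edgeR and 3.45, 4.03 and 3.31 in DESeq2 at 0, 12 and 24 h, as these add less to low counts. Depth limits *Bhmt2* and control *Bhmt* most.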
